A study of Homo sapiens with 3 samples.

Results

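HDAC9, HDAC4, HDAC5 and HDAC7 encode the class IIa histone deacetylases, and the RNA of these 4 genes was examined for contact sites of MATR3, an RNA-binding protein of the nucleus. The sites were measured by PAR-CLIP, a method in which cells take up a photoreactive uridine analogue, and RNA crosslinked by light to a protein is recovered, sequenced and grouped into clusters of overlapping reads that carry T-to-C changes at the crosslinked uridines. The members were all clusters that the authors' gene annotation assigned to the 4 names, 251 of the 115227 clusters in 3 libraries. HDAC9 had been picked for its many intronic clusters, so its numbers of clusters and reads are descriptions and carry no test. The remaining 3 genes serve as the contrast.

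The cells were HAP1, a near-haploid human line derived from the chronic myeloid leukaemia line KBM-7. The wild type (WT) was represented by 2 libraries, and a line with MATR3 knocked out (KO), the negative control, by 1, and the labels give no other treatment or allele. All 3 were immunoprecipitated on anti-FLAG beads, and no label records a FLAG tag on MATR3 or whether the KO line is 1 clone. The WT replicates are labelled as replicates only, so the spread between them may be technical. WT replicate 1 held 87230 clusters with 2668797 reads, WT replicate 2 held 27155 clusters with 1558995 reads, and KO held 842 clusters with 224142 reads. The MATR3 gene itself had 53 and 26 clusters in the WT libraries and none in KO. Cluster tables give no expression levels, so the identity of the cells was not checked against marker genes, and a gene's clusters reflect both its RNA level and its binding.

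Class IIa deacetylases are transcriptional corepressors with little deacetylase activity of their own. They bind MEF2 transcription factors through their N-terminal part and bring in the NCoR corepressor complex, which contains the class I enzyme HDAC3. Phosphorylation by calcium/calmodulin-dependent kinases, protein kinase D and salt-inducible kinases makes them bind 14-3-3 proteins and leave the nucleus. HDAC9 is a very long gene with several promoters, and it also gives short isoforms, known as MITR or HDRP, that bind MEF2 but lack the catalytic domain. MATR3 binds pyrimidine-rich RNA, mostly in introns, and takes part in splicing.

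The HDAC9 sites found in both WT libraries are shown first, for the 5 overlapping pairs that ranked highest by the geometric mean of their read numbers. Each line gives the bases common to both libraries, 5′ to 3′ on the plus strand, in the hg38 coordinates of the tables, and capitals mark runs of at least 5 pyrimidines. All 5 lie in introns of HDAC9.
Site 1, chr7:18533943-18533977: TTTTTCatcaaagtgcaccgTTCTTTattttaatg
Site 2, chr7:18535099-18535131: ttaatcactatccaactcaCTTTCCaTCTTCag
Site 3, chr7:18546533-18546562: acaCCTTCTTTCTCCTTCTCaTTCTCTTag
Site 4, chr7:18533230-18533289: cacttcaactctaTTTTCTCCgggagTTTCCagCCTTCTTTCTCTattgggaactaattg
Site 5, chr7:18533724-18533762: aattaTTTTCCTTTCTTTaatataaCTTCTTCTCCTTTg

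These sites differed in how purely pyrimidine they were. Site 3 was the richest, with 83.3% pyrimidines, and site 1 the poorest of the 5, with 65.7%. Each of the 5 ended in G in both libraries; RNase T1, the enzyme used to trim the RNA, cuts after G. Site 1 had 314 reads in WT replicate 1 and 535 in WT replicate 2, the highest count of any HDAC9 cluster in that library. Site 2 had 368 reads in WT replicate 1, the highest there, and 170 in WT replicate 2. Sites 3, 4 and 5 had 199, 141 and 109 reads in WT replicate 1 and 172, 187 and 161 in WT replicate 2. At site 1, 54.8% of reads had a T-to-C change in WT replicate 1 and 61.7% in WT replicate 2. The medians over HDAC9 clusters were higher, at 92.0% and 96.7%. Site 1 was not alone in this: site 3 had 71.4% and 60.5%, and site 5 had 77.1% and 58.5%. Sites 2 and 4 were below the median in WT replicate 1, at 76.9% and 70.2%, but close to it in WT replicate 2, at 97.6% and 96.3%.

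HDAC9 lies on the plus strand of chromosome 7, at positions 18086825 to 19002416 in RefSeq (GRCh38.p14), a length of 915.592 kb. WT replicate 1 had 147 clusters there, with 6305 reads, and WT replicate 2 had 74, with 5457 reads. The WT mean was 110.5 ± 51.6 clusters (SD, n = 2), and the numbers of reads were closer to each other than the numbers of clusters. All of these clusters were annotated as intronic. Among genes with a cluster, HDAC9 ranked 2 in both WT libraries, tied with 1 other gene in each. Its clusters were 0.169% of all clusters in WT replicate 1 and 0.273% in WT replicate 2. They held 0.236% and 0.350% of the cluster reads, a mean of 0.293 ± 0.0805% (SD, n = 2). With only clusters of at least 3 converted positions the mean fell to 46.5 clusters, and with equal numbers of clusters from both WT libraries it was 68.5.

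KO had no cluster in HDAC9, HDAC4, HDAC5 or HDAC7. Of the genes with clusters in both WT libraries, 91.3% had none in KO, so the absence is what most genes showed. At the HDAC9 share of the WT libraries, 842 clusters would hold 1.42 or 2.29 HDAC9 clusters. The number of KO clusters is not a measure of depth, which is unknown, so this expectation cannot decide whether the genotypes differed at HDAC9. With 3 libraries the smallest p-value of a permutation is 0.333, and no test between genotypes was run.

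The HDAC9 clusters were crowded into a small stretch of the gene. The RefSeq transcript starts used here include 5 for HDAC9: 1 at the gene's outer end and 4 internal ones, between 408.885 and 422.445 kb further downstream. This list of starts may be incomplete, since its only HDAC7 start lies 1.441 kb inside that gene. The 408.885 kb before the internal starts make up 44.7% of the gene, but held 10 of the 147 clusters of WT replicate 1 and 2 of the 74 of WT replicate 2. The next 200 kb, 21.8% of the gene, held 119 clusters in WT replicate 1, or 81.0% (95% Wilson interval 73.8 to 86.5%), and 67 in WT replicate 2, or 90.5% (81.7 to 95.3%). The remaining 306.707 kb held 18 and 5. Expressed per length, the densities of these 3 stretches were 2.45, 59.5 and 5.87 clusters per 100 kb in WT replicate 1, and 0.489, 33.5 and 1.63 in WT replicate 2. The same stretch of 200 kb held 91.0% of the HDAC9 reads in WT replicate 1 and 94.4% in WT replicate 2. The length of 200 kb was chosen after the positions were seen, and which of the starts HAP1 cells use was not tested.

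**Figure D1:**
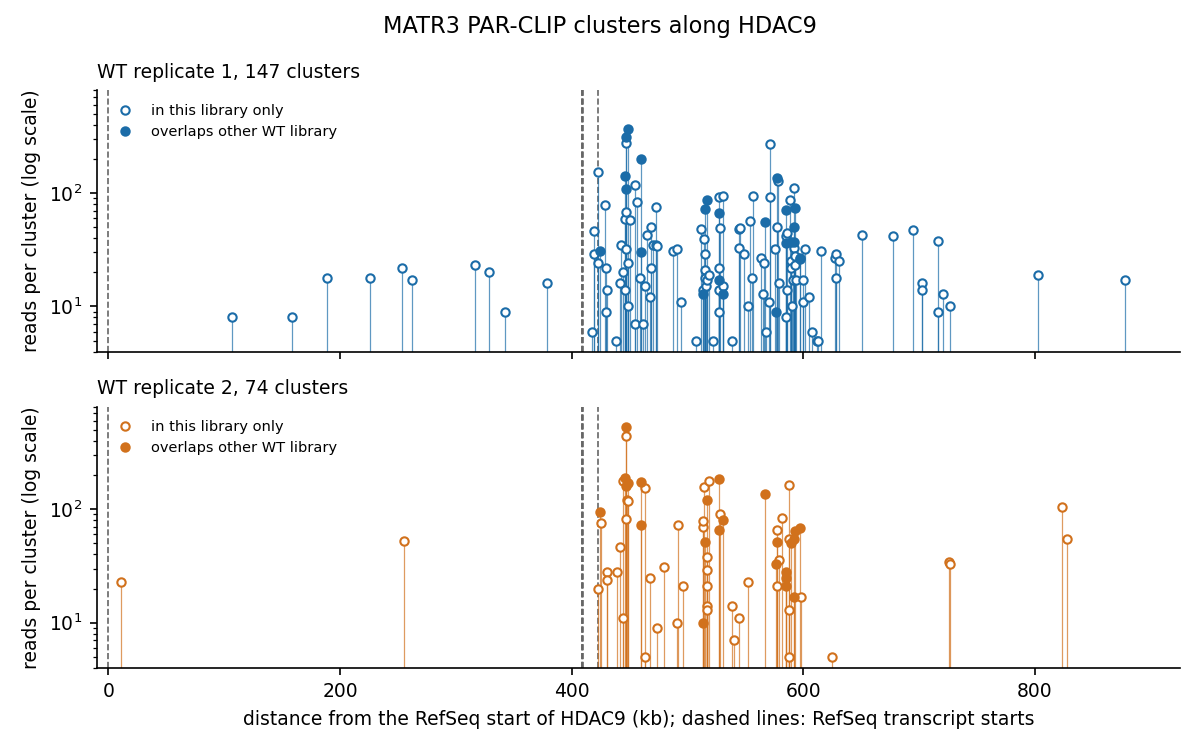
Reads per HDAC9 cluster (log scale) against the distance of the cluster's midpoint from the outer RefSeq start, in kb, for WT replicate 1 (top) and WT replicate 2 (bottom). Filled points are clusters that overlap a cluster of the other WT library, and dashed lines mark the 5 RefSeq transcript starts used here. All filled points lie within 200 kb after the first internal start at 408.885 kb, as does every cluster with at least 100 reads except 1 of WT replicate 2, with 104 reads.

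The degree of crowding was compared with that of other genes rich in clusters. For each of the 38 genes with at least 30 clusters in both WT libraries, the shortest window with 80% of the clusters was measured. The HDAC9 windows of WT replicates 1 and 2 measured 187.091 and 153.726 kb, or 20.4% and 16.8% of the gene's length. Over the 38 genes the medians were 60.3% and 54.1%, and HDAC9 had the lowest value in both. It was also the lowest of the 38 when the window was divided by the distance between the outermost clusters of the gene, at 24.3% and 18.8% against medians of 67.1% and 61.3%. Counted from the first internal start, which leaves 506.707 kb, the HDAC9 window was 36.9% and 30.3% of the length. These values were not the lowest: FTX had 31.5% and 27.8% of its whole length. GPHN was also lower in WT replicate 1, at 36.0%, and HSD17B12, DLGAP1 and PPFIA2 were lower in WT replicate 2. The other genes were not measured from internal starts. The windows themselves, in kb, were of ordinary size, with 20 of the other genes below HDAC9 and 17 above it in each library. The measure was chosen after the positions were seen and is given as a description.

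**Figure D2:**
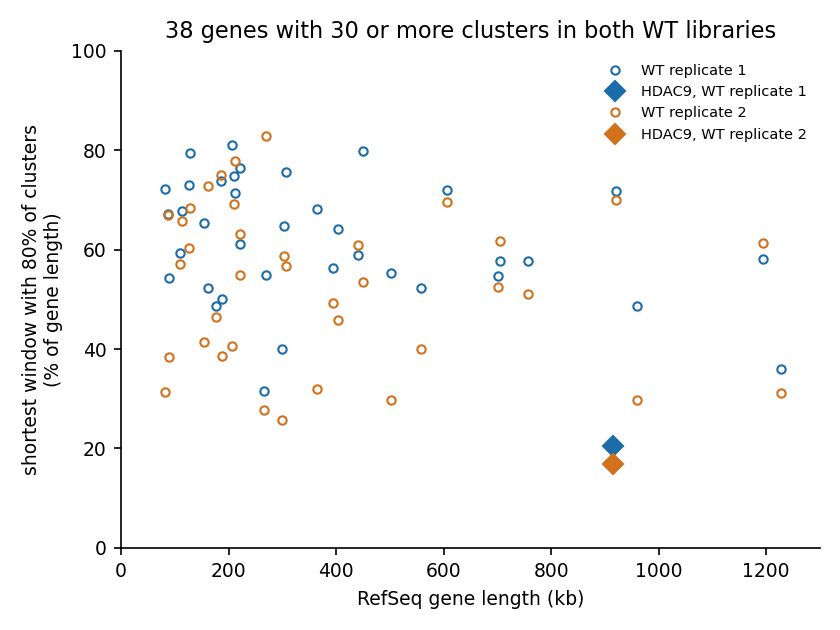
Shortest window that holds 80% of a gene's clusters, as a percentage of its RefSeq length, against that length in kb, for the 38 genes with at least 30 clusters in both WT libraries. HDAC9 (diamonds) has the lowest percentage in both, 20.4% in WT replicate 1 and 16.8% in WT replicate 2.

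Within this stretch the clusters formed smaller groups, of which some lay at the same places in both WT libraries. Of the bins of 10 kb, 10 held at least 5 clusters in WT replicate 1 and 5 did in WT replicate 2. All 5 of the latter were among the 10. These 5 bins held 59 of the 147 clusters of WT replicate 1 and 42 of the 74 of WT replicate 2. The fullest bin of WT replicate 1 started 440 kb from the outer start and had 14 clusters there and 11 in WT replicate 2. The fullest of WT replicate 2 started at 510 kb and had 12 in each library. A further group lay in the 3 bins from 570 to 600 kb, with 9, 11 and 13 clusters in WT replicate 1 and 5, 9 and 5 in WT replicate 2. Of the 92 bins of the gene, 19 had clusters in both libraries, 22 in WT replicate 1 only, 2 in WT replicate 2 only and 49 in neither. Pearson's r of the bin counts was 0.885 and Spearman's rho 0.690, as a description over 92 bins that share the gene and many zeros.

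**Figure D3:**
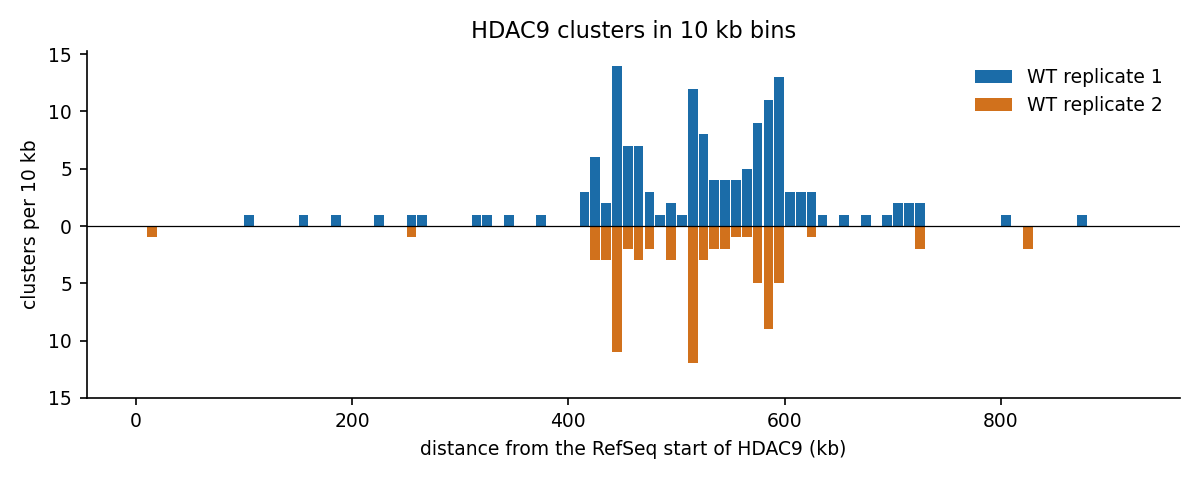
HDAC9 clusters per bin of 10 kb against the distance from the outer RefSeq start, in kb, with WT replicate 1 above the line and WT replicate 2 below it. The groups at 440 kb, 510 kb and 570 to 600 kb appear in both libraries.

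Spacing between neighbours describes the same crowding in another way, since it follows from the number of clusters and the stretch that holds them. Whether neighbours lay closer than random placement within that stretch would give was not tested. The median distance between the midpoints of neighbouring HDAC9 clusters was 1017 nt in WT replicate 1 and 1213 nt in WT replicate 2, a mean of 1115 ± 139 nt (SD, n = 2), while the mean distances were 5276 and 11184 nt. In WT replicate 1, 59 of 146 distances were under 500 nt, and in WT replicate 2, 28 of 73 were. Of these, 16 and 11 were under 100 nt. A neighbour within 1000 nt was present for 66.7% of the clusters of WT replicate 1 and for 66.2% of those of WT replicate 2. The widest gap was 76.175 kb in WT replicate 1 and 243.872 kb in WT replicate 2, the latter before the internal starts. With at least 3 converted positions per cluster the mean of the medians was 2673 nt.

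The densest reads came from a single spot of 2 kb, 37.4 kb downstream of the first internal start. The window of 2 kb with the most HDAC9 reads in WT replicate 1 spanned clusters from 18533144 to 18535131. It held 9 clusters with 1330 reads there, 21.1% of the gene's reads, and 7 clusters with 1693 reads, 31.0%, in WT replicate 2. The window is 0.218% of the gene's length. In both libraries, 4 of its clusters overlapped the other library, and these are sites 1, 2, 4 and 5 above. The strongest cluster of the spot that WT replicate 1 lacked had 438 reads in WT replicate 2 and lay at 18533560 to 18533583. The strongest that WT replicate 2 lacked had 274 reads in WT replicate 1 and lay at 18533664 to 18533698, between 2 shared sites. Their full sequences, with the same marking, are given because they show unshared contacts a short distance from shared ones.
WT replicate 2 only: catttggCTTCCCCaacacatttg
WT replicate 1 only: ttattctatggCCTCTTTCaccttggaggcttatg

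Agreement between the WT replicates was counted by overlap of at least 1 nt on the same strand. In WT replicate 2, 24 of the 74 HDAC9 clusters had an overlapping partner in WT replicate 1, or 32.4% (95% Wilson interval 22.9 to 43.7%). Among all intronic clusters of that library 20.3% did so. In the other direction 23 of 147 HDAC9 clusters, or 15.6% (10.7 to 22.4%), had a partner in WT replicate 2, against 6.19% of all intronic clusters of WT replicate 1. Both HDAC9 intervals lie above the share of the library, and they cover counting error only, since the clusters of a gene share their library. HDAC9 was not alone in this: among the 38 genes the overlap share of WT replicate 2 ran from 5.88 to 51.6% with a median of 23.7%, and 10 genes were above HDAC9. The clusters of WT replicate 1 covered 2.13% of the 200 kb stretch, where all 24 overlapping clusters of WT replicate 2 lay.

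Overlap was more frequent for clusters with more reads. For WT replicate 2 it was 2 of 15 HDAC9 clusters with 5 to 19 reads, 14 of 42 with 20 to 99 reads and 8 of 17 with 100 or more. The shares of all intronic clusters in these classes were 12.8%, 21.4% and 31.2%, and each lay inside the Wilson interval of HDAC9. For the middle class that interval was 21.0 to 48.4% around 33.3%, so its lower bound lay just under the intronic share. Within read classes, a difference of HDAC9 from other intronic clusters was not detectable in WT replicate 2. For WT replicate 1 the HDAC9 shares were 4 of 60, 13 of 75 and 6 of 12 in the same classes. There the share of all intronic clusters was 7.15% for 20 to 99 reads, below the HDAC9 interval of 10.4 to 27.4%, while in the other classes, at 3.42% and 29.8%, it lay inside the HDAC9 intervals. The median shared HDAC9 cluster had 55 reads in WT replicate 1, where the median unshared one had 22, and the medians of WT replicate 2 were 67 and 32.

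The 24 overlapping pairs, made of 23 clusters of WT replicate 1 and 24 of WT replicate 2, spanned 172.650 kb. Their ends often fell on the same base: 10 pairs shared the start, 10 shared the end and 3 shared both. In 5 pairs WT replicate 2 ended exactly 1 nt later. The last base was G in 22 of the 24 WT replicate 2 clusters and in 14 of the 23 WT replicate 1 clusters. Over all intronic clusters it was G in 94.6% of WT replicate 2 and in 73.9% of WT replicate 1, so the pairs were not richer in it. WT replicate 2 had more reads in 14 pairs and WT replicate 1 in 10. Across the 24 pairs Pearson's r of log2 reads was 0.604 and Spearman's rho 0.506, given as a description.

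**Figure D4:**
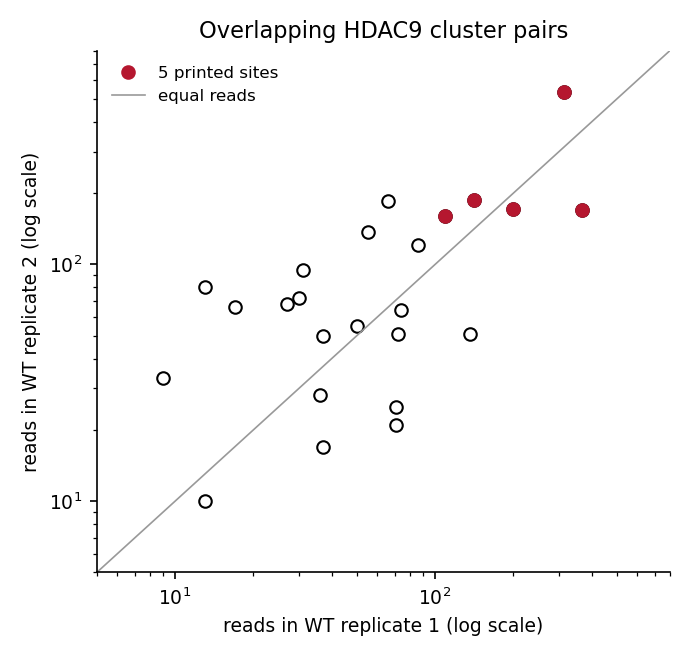
Reads of the 24 pairs of overlapping HDAC9 clusters in WT replicate 1 and WT replicate 2, both on log scales, with the line of equal reads. The 5 sites whose sequences are printed (red) have between 109 and 368 reads in WT replicate 1 and between 161 and 535 in WT replicate 2.

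Distances to the nearest HDAC9 cluster of the other WT library were measured for all clusters and for those with no overlap. Over all clusters, the median distance from an HDAC9 cluster of WT replicate 2 to the nearest one of WT replicate 1 was 115.5 nt between midpoints, and 59 of the 74 had one within 1000 nt. Within 100 nt there were 36 of 74, or 48.6%. From WT replicate 1 to WT replicate 2 the median was 621 nt, and 85 of 147 had one within 1000 nt. Of the 50 clusters of WT replicate 2 with no overlap, 12 had a cluster of the other library within 100 nt and 35 within 1000 nt, with a median distance of 352.5 nt. Of the 124 such clusters of WT replicate 1, 12 had one within 100 nt and 62 within 1000 nt, with a median of 1062 nt. These distances were not measured for other genes or for all intronic clusters. They also depend on how densely the clusters lie, so they are a description and no measure of agreement between the libraries.

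The sequence of the HDAC9 clusters was much like that of other intronic clusters, with slightly more T and less G. T made up 42.7% of HDAC9 cluster bases in WT replicate 1 and 44.7% in WT replicate 2, a mean of 43.7 ± 1.40% (SD, n = 2). Over all intronic clusters T was 40.4% and 42.1%, a mean of 41.2 ± 1.22%. The ranges did not overlap, and T was higher in HDAC9 in each library. The difference in means was under the sum of the SDs. Both sets come from the same libraries, so these SDs hold a shift that the sets share and do not measure the difference. With 2 libraries it was not tested. G was 7.68% and 8.48% in HDAC9 against 9.99% and 9.78% over all intronic clusters. C was 26.2% and 24.8% against 27.7% and 26.8%, and A was 23.4% and 22.0% against 21.9% and 21.3%. Over the intronic clusters of KO, T was 33.2% and G 16.5%.

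Pyrimidine words were about as frequent in HDAC9 as elsewhere. TTCTT or TTTCT, read on the sense strand only and possibly overlapping each other, occurred in 71 of 147 HDAC9 clusters in WT replicate 1, or 48.3% (95% Wilson interval 40.4 to 56.3%), where 43.7% of all intronic clusters had them. For WT replicate 2 it was 38 of 74, or 51.4% (40.2 to 62.4%), against 45.1%. ATCTT, in RNA the AUCUU that MATR3 prefers in vitro, occurred in 26 of 147 HDAC9 clusters, or 17.7% (12.4 to 24.7%), against 14.8% of the intronic clusters of WT replicate 1. Its count was 14 of 74 in WT replicate 2, or 18.9% (11.6 to 29.3%), against 15.9%. Each HDAC9 interval included the share of all intronic clusters, so no difference was detectable. Intronic KO clusters had TTCTT or TTTCT in 17.8% and ATCTT in 6.48%.

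Conversion in HDAC9 was slightly lower than over all intronic clusters. Of the T events read in HDAC9 clusters, 7.08% were converted in WT replicate 1 and 7.53% in WT replicate 2, a mean of 7.31 ± 0.320% (SD, n = 2). All intronic clusters had 8.03% and 7.77%, a mean of 7.90 ± 0.182%. These shares pool the T events of all reads, so clusters with many reads weigh most. The 10 HDAC9 clusters with the most reads held 33.3% of the gene's reads in WT replicate 1 and 43.3% in WT replicate 2. With 2 libraries the difference was not tested. The deposited clusters were selected on conversion, with at least 2 converted positions each, so these shares describe the clusters and not the RNA. Shared HDAC9 clusters in WT replicate 1 had a median T-to-C share of 77.1% of reads, against 93.2% for unshared ones, but in WT replicate 2 the medians were 97.4% and 96.2%, so the order did not hold in both. The median HDAC9 cluster was 33 nt long in WT replicate 1 and 32 nt in WT replicate 2, and rested on 3 distinct read sequences in each. A single distinct sequence lay behind 18 clusters of WT replicate 1 and 4 of WT replicate 2.

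HDAC4, the class IIa enzyme known for its role in cartilage and bone growth, had far fewer sites. It lies on the minus strand of chromosome 2, at 239048168 to 239401649, and is 353.482 kb long. There were 24 clusters with 448 reads in WT replicate 1 and 3 clusters with 170 reads in WT replicate 2, all intronic, a mean of 13.5 ± 14.8 clusters (SD, n = 2). The SD exceeds the mean, so the level rests on WT replicate 1. Per length that is 6.79 and 0.849 clusters per 100 kb, against 16.1 and 8.08 for HDAC9. HDAC9 was higher in each library, which is a description only, since HDAC9 had been picked for its many clusters. No HDAC4 cluster overlapped between the WT libraries, and the closest midpoints were 111 nt apart. That is 0 of 24 (95% Wilson interval 0 to 13.8%) in WT replicate 1 and 0 of 3 (0 to 56.1%) in WT replicate 2. The shares of all intronic clusters, 6.19% and 20.3%, lay inside these intervals, so no difference from them was detectable. In WT replicate 1, 8 of the 24 clusters lay within 4.164 kb near the 3′ end of the gene, at 239055260 to 239059423, where WT replicate 2 had none.

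The HDAC4 cluster with the most reads in each library is shown because the sequences are of different kinds. The first had 49 reads, 93.9% of them with a T-to-C change, and lay in the group near the 3′ end at chr2:239057806-239057835. The second had 123 reads, of which 6.50% carried a change, and lay at chr2:239261823-239261855. Both are given on the minus strand with runs of at least 5 pyrimidines in capitals.
HDAC4, WT replicate 1: ctcatcaTTCCTTCTCaTTTCTCacactgt
HDAC4, WT replicate 2: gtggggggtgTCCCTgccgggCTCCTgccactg
This G-rich cluster held 123 of the 170 HDAC4 reads of WT replicate 2. Of the 74 HDAC9 clusters of that library, 1 had fewer than 50% of its reads with a change, as did 8 of the 147 in WT replicate 1.

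HDAC5, a class IIa enzyme studied in heart and muscle, lies on the minus strand of chromosome 17 at 44076753 to 44123641, over 46.889 kb. It had 2 clusters of 8 reads each in WT replicate 1, 1 intronic and 1 across an intron and the 5′ UTR. WT replicate 2 had 1 intronic cluster of 93 reads, all copies of 1 distinct read sequence, at chr17:44116573-44116606. The clusters of the libraries did not overlap, and the closest midpoints were 323 nt apart. With 2 and 1 clusters, this cannot be told apart from the shares of all intronic clusters, 6.19% and 20.3%. Its density of 4.27 and 2.13 clusters per 100 kb lay below that of HDAC9 in each library, from a total of 3 clusters. The WT replicate 2 cluster is printed as the strongest one of the gene, on the minus strand and marked as above.
HDAC5: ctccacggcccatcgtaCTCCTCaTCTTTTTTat

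HDAC7, best known from blood vessel and thymus development, had no cluster in any library. It is the shortest of the 4 genes, 38.623 kb on chromosome 12 at 47782722 to 47821344. RefSeq also lists HDAC7 as an older name of HDAC9, so the interval was checked by position, and no cluster of either strand lay in it. Of all RefSeq protein-coding genes, 26.2% had a cluster in both WT libraries. Among the 4 class IIa genes these were HDAC9, HDAC4 and HDAC5.

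**Figure D5:**
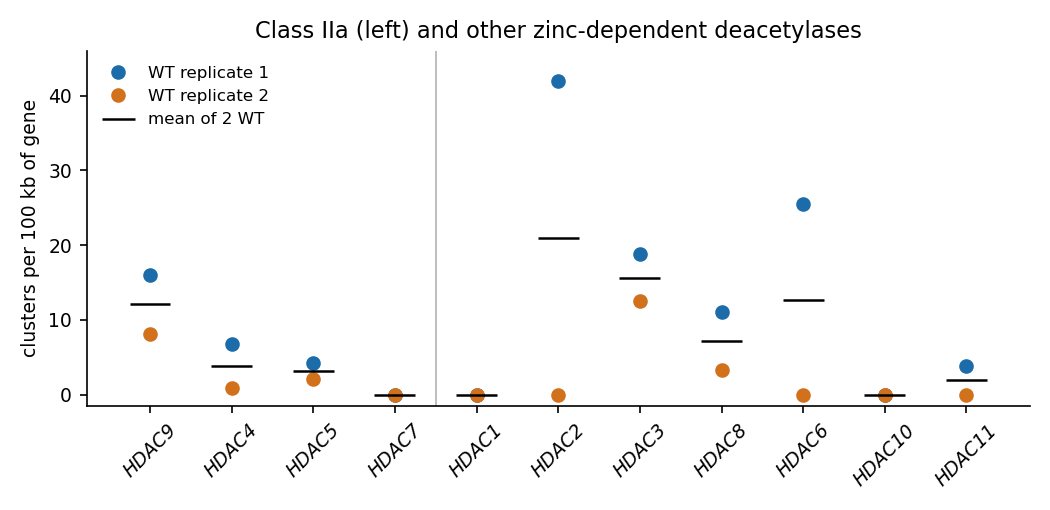
Clusters per 100 kb of RefSeq gene length in each WT library (points) with the mean of both (bars), for the 4 class IIa genes on the left and the 7 other zinc-dependent deacetylases on the right. HDAC9 lies at 16.1 and 8.08, above HDAC4, HDAC5 and HDAC7 in each library, while HDAC2, HDAC3 and HDAC6 lie above HDAC9 in WT replicate 1.

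The 7 other zinc-dependent deacetylases were set beside the class IIa genes. Clusters in both WT libraries were found for 2 of the 7. HDAC3, the catalytic subunit of the NCoR complex, had 3 and 2 clusters, all intronic, and its density of 18.8 and 12.5 per 100 kb was above that of HDAC9 in each library, from 5 clusters in all. HDAC8, a class I enzyme that acts on cohesin, had 27 and 8, and it was the only deacetylase gene with a KO cluster, of 291 reads. HDAC2, a class I enzyme of several corepressor complexes, had 16 clusters, HDAC6, the tubulin deacetylase, had 6 and HDAC11 had 1, in WT replicate 1 only. HDAC1 and HDAC10 had none in WT.

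Partners and regulators of class IIa enzymes were described as a list of 25 genes. Of these, 18 had clusters in both WT libraries, or 72%, against 26.2% of all protein-coding genes; the list was not matched on gene length or expression. The median was 10 clusters in WT replicate 1 and 3 in WT replicate 2. Among the MEF2 factors, MEF2A had 36 and 19 clusters, MEF2C had 2 and 3, MEF2D had 3 in WT replicate 1 only, and MEF2B had none. NCOR1, which encodes the corepressor NCoR, had 18 and 5, and TBL1XR1, a further subunit of its complex, had 67 and 11. Of the kinases that drive export, SIK3 had 51 and 17, PRKD1 had 32 and 12, and CAMK2D had 72 and 26, while SIK1 and CAMK1 had none. YWHAQ, which encodes a 14-3-3 protein, had 39 and 10, and XPO1, the export receptor, had 17 and 1. KO had 1 cluster each in MEF2A and CAMK2D.

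Other genes of about the same length had fewer clusters than HDAC9, a description only, since HDAC9 had been picked for its many clusters. The 5 protein-coding genes nearest to it in length, between 903.812 and 920.156 kb, were TRPM3, THSD7B, DIAPH2, NELL1 and SUGCT. DIAPH2 had the most, 77 and 34. The fewest were 7 in WT replicate 1, for SUGCT, and 5 in WT replicate 2, for NELL1. The 5 genes whose numbers of clusters were most like those of HDAC9, by the Euclidean distance of log2(clusters + 1) over the 3 libraries, were SND1, DLGAP1, CMSS1, ANKRD17 and ADGRV1. SND1, also on chromosome 7, was the closest, with 171 and 74 clusters in 440.400 kb, and 20 of the 74 had an overlapping partner in WT replicate 1. DLGAP1 is the one nearest to HDAC9 in length, 959.276 kb, and had 129 and 47.

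Among the listed genes around HDAC9, only SNX13 had clusters. It lies upstream on chromosome 7, over 149.734 kb, and had 13 clusters in WT replicate 1 and 6 in WT replicate 2. Per 100 kb that is 8.68 and 4.01, against 16.1 and 8.08 for HDAC9. PRPS1L1, TWIST1 and FERD3L, of 1.077, 4.59 and 0.64 kb, had none in any library, lengths at which an absence says little about density. HDAC9-AS1, an antisense transcript of 16.114 kb inside the HDAC9 interval, also had none. On the minus strand within that interval lay 2 clusters, both of WT replicate 1 and both without an annotation, with 15 and 48 reads. Both are located before the internal starts, at 18358277 to 18358307 and 18383456 to 18383488. Every plus-strand cluster inside the interval carried the name HDAC9.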

How the data were processed

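The authors deposited 1 cluster table per library, called separately and not on pooled libraries. Its columns hold whole-number counts of reads, distinct reads, converted positions and T events per cluster, deposited fraction columns (reads with a T-to-C change, reads ending in G), and deposited caller scores, which were not used. Per the submitters' processing notes, cutadapt 1.8.3, Bowtie 1.1.2 and the builds hg38 and GRCh38.p5 were used; the caller and filters are not given in the sources used here. The weakest clusters had 5 reads and 2 converted positions. Reads carry no molecular identifiers, total depth is unknown, and each cluster has 1 gene name.

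Gene intervals, names and starts came from RefSeq (GRCh38.p14), a later patch of the same assembly. Clusters were counted by gene name, and by overlap of at least 1 nt on the same strand between libraries. Values are WT means with SD (n = 2) or shares with 95% Wilson intervals. On 27155 simulated intervals 100% of planted overlaps were recovered. The genes, lists and measures were chosen with earlier results of these data known. Genes named are the members, 2 fixed lists, the neighbours of HDAC9 and the 5 genes nearest in clusters or length. Values of 1 listed gene are not reported here. Sites named are the 5 strongest HDAC9 pairs and the strongest cluster or pair per gene; the 2 unshared HDAC9 sites and the minus-strand clusters were chosen after their values were seen. Alternatives were minima of 10 reads or 3 converted positions, equal numbers of clusters, other overlap rules, assignment by position and each WT library alone. The software was pandas 2.3.3, numpy 2.4.6, matplotlib 3.10.9 and scipy 1.17.1, under Python 3.11.15.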

Additional observations from a re-analysis of the deposited data

How the results depend on the processing

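Of 66 alternative values for 12 results, 46 stayed within 1.5 times (counts and densities), within the SD of the WT libraries or within the Wilson interval. Part of these 46 was fixed in advance. With 2 WT libraries, the value of either one alone always lies within their SD, and no filter can move HDAC7 from 0. The 46 are therefore not a measure of robustness. With at least 3 converted positions, HDAC9 had 46.5 clusters, 5.08 per 100 kb, 0.381% of reads, a median spacing of 2673 nt, 45.6% T and 63.0% of clusters with TTCTT or TTTCT. The 200 kb stretch then held 93.6% of HDAC9 clusters, against 85.7 ± 6.78% (SD, n = 2) with all clusters; this result and its alternatives were added after seeing the data. HDAC4 had 3.5 clusters and HDAC5 had 0 under the same setting. Equal numbers of clusters from both WT libraries gave HDAC9 68.5 clusters, 7.48 per 100 kb, a spacing of 1634 nt and 53.5% with the words. HDAC4 then had 3 and HDAC5 had 0.5. For T and the words, the shares of all intronic clusters under this setting or with at least 3 converted positions are not given. The values of 45.6%, 63.0% and 53.5% therefore cannot be set against the unfiltered shares. With at least 10 reads HDAC5 had 0.5. HDAC4 ran from 3 to 24 clusters with 1 WT library left out. The share of WT replicate 2 HDAC9 clusters found in WT replicate 1 was 48.6% for midpoints within 100 nt, and the reverse share was 15.6%; it was between 25.7 and 41.7% under the other settings, always above that of all intronic clusters where both were computed. These differences follow from the clusters kept or the rule of overlap. HDAC7 stayed at 0. No paired analysis was possible because KO has 1 library without a replicate number and no test was run. The number of libraries and their unknown depth limit all comparisons.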

Other observations

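The deposited column for the share of reads ending in G did not carry the same meaning on both strands. Over intronic clusters its median was 97.1% on the plus strand and 0% on the minus strand in WT replicate 1, and 100% and 0% in WT replicate 2 and in KO. The cluster sequences themselves ended in G on both strands, in 67.6% of plus-strand and 81.0% of minus-strand intronic clusters of WT replicate 1, and in 93.3% and 96.1% of those of WT replicate 2. HDAC9 is on the plus strand and HDAC4 and HDAC5 are on the minus strand. The medians of that column, 94.6% for HDAC9 and 0% for HDAC4 in WT replicate 1, therefore cannot be set against each other. By sequence, 101 of the 147 HDAC9 clusters and 18 of the 24 HDAC4 clusters of that library ended in G. The cause of the difference between strands was not tested.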
